A study of Mus musculus with 8 samples.

Results

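The genes described here are 10 genes of the Hippo pathway: the transcription factors Tead1, Tead2, Tead3 and Tead4, their coactivators Yap1 and Wwtr1, the target genes Ankrd1 and Amotl2, and the negative regulators Lats2 and Vgll4. They were taken as a list of named genes out of 21938 annotated protein-coding genes, and every WFS1 peak within 100 kb of the body of each gene was collected. This gave 68 of the 22292 combined WFS1 peaks, and no peak was counted for more than 1 of the genes. WFS1 is a transmembrane protein of the endoplasmic reticulum that also resides in the inner nuclear membrane, and the study asked whether it associates with genomic regions, first of all around MyoD1. The peaks came from WFS1 ChIP-seq in proliferating wildtype C2C12 cells, a mouse myoblast line, crosslinked with DSG and formaldehyde and immunoprecipitated with a WFS1 antibody (ProteinTech). Chromatin was sheared for 30 cycles, and a part of the same immunoprecipitate was sonicated for 6 further cycles, which gave 2 libraries after 30 and 36 cycles with 1 peak list each. The other 6 of the 8 libraries of the series, inputs of wildtype cells and inputs and ChIP of WFS1 knockout cells expressing FlagTag WFS1, were not used here.

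The lists held 18283 peaks after 30 cycles and 12674 peaks after 36 cycles, given as coordinates with no signal, score or q-value. The number of reads behind the lists is unknown. The lists share 1 immunoprecipitation and are not replicates, and the conditions have 1 library each, so values are described without a test and each interval is a counting error over the peaks alone. The lists hold no expression values, so neither the myoblast identity nor the activity of the genes could be checked in them. A combined peak was made by joining peaks that overlapped between or within the lists, and a peak of both lists held at least 1 peak of each list.

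In the Hippo pathway, MST kinases and LATS kinases act in a cascade that phosphorylates the coactivators YAP and TAZ and keeps them out of the nucleus. Unphosphorylated YAP and TAZ enter the nucleus, where they have no DNA contact of their own and act through TEAD factors, which bind the MCAT element. In myoblasts, YAP activity is known to favor proliferation, TEAD factors are known for MCAT elements of muscle genes, and several target genes feed back on the cascade.

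All 10 genes had a WFS1 peak within 100 kb, where 73.4% of all protein-coding genes had one. A peak of both lists lay within 100 kb of 9 genes, all but Yap1, beside 47.8% of all protein-coding genes. The start sites of 5 genes had a peak less than 1 kb away, namely those of Tead4, Yap1, Wwtr1, Ankrd1 and Amotl2, beside 13.2% of all protein-coding genes. Of the 10 genes, 8 held a peak inside the gene body, all but Tead2 and Tead3, beside 24.6% of all protein-coding genes. Long genes have longer windows, and the median length of all protein-coding genes was 17.4 kb, whereas the 10 genes ranged from 8.14 kb for Ankrd1 to 227 kb for Tead1. Per Mb of gene and flanks, the 10 genes had a median of 19.1 peaks (range 9.18 to 72.1), compared with a median of 9.35 and a 90th percentile of 33.7 for all protein-coding genes, and 9 of the 10 lay above that median. The genes spread over a wide range of densities, with Tead2 and Vgll4 near the median of all genes and Ankrd1, Tead3 and Amotl2 above the 90th percentile.

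**Figure D1:**
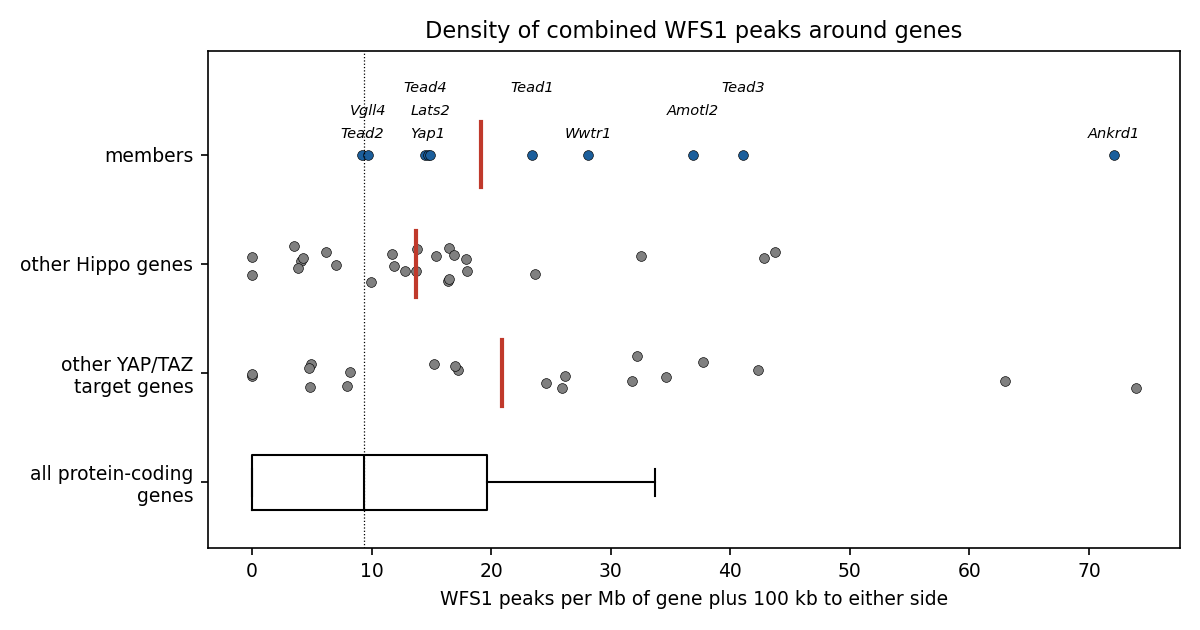
Combined WFS1 peaks per Mb of gene plus 100 kb to either side (x axis) for the 10 genes, for other Hippo genes and for other YAP/TAZ target genes, 1 point per gene, with the group medians as red lines and, for all protein-coding genes, a box at the quartiles and median with whiskers to the minimum and the 90th percentile. Ankrd1 stands highest of the 10 genes at 72.1 peaks per Mb, and Tead2 lowest at 9.18, below the median of all genes of 9.35 (dotted line).

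Of the 4 TEAD factors, which share the same type of DNA-binding domain, Tead1 had 10 combined peaks, Tead3 had 9, Tead4 had 4 and Tead2 had 2. Per Mb this was 23.4 for Tead1, 41.1 for Tead3, 14.5 for Tead4 and 9.18 for Tead2. Only the window of Tead4 had a peak on the gene's start site, and in the windows of Tead2 and Tead3 no peak lay closer to the gene's own start site than to that of another protein-coding gene.

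Tead1 encodes a TEAD factor known to bind MCAT elements of muscle genes. Its start site, at the 5′ end of a gene body on chr7:112679318-112906807 (plus strand, GRCm38), was 15.8 kb from the nearest peak, a 506 bp peak of both lists upstream of the gene in an intron of the noncoding gene 2310014F06Rik. Within the introns of Tead1 lay 3 further peaks of both lists, 1067 bp wide at 17.5 kb, 485 bp wide at 40.8 kb and 371 bp wide at 81.4 kb, and a 255 bp peak of the 30 cycle list at 134 kb. The intronic sites were wide mainly in the 30 cycle list: the 1067 bp peak spanned 1067 bp after 30 cycles and 252 bp after 36 cycles, and the peak at 81.4 kb spanned 371 and 222 bp. The peak at 81.4 kb lay 1.2 kb, and that at 17.5 kb 5.12 kb, from the nearest start of an annotated Tead1 transcript. Each list called 7 peaks around Tead1, and 7 of the 10 combined peaks had the Tead1 start site as their nearest. The other peaks were 195 to 454 bp wide, upstream of the gene or beyond its 3′ end.

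Tead2 encodes a TEAD factor best known from early embryos (gene on chr7:45215753-45233644, plus strand), and its window had the fewest peaks. The nearest was a peak of both lists 1390 bp wide, 23.1 kb upstream of the Tead2 start site, in an intron of Ccdc155, which encodes the nuclear envelope protein KASH5. This peak was 1390 bp wide after 30 cycles and 721 bp after 36 cycles, and 98% of all combined peaks were narrower. The other peak, of 566 bp after 30 cycles only, lay 86.1 kb upstream and 0.278 kb from the start site of the ribosomal protein gene Rpl13a. Neither peak was inside Tead2.

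Tead3, known from placenta among other tissues, had 9 peaks, none inside its 19.1 kb gene body (chr17:28331671-28350817, minus strand). The nearest, 355 bp wide and called after 30 cycles only, was 17.4 kb upstream of the Tead3 start site and 3.01 kb from that of Tulp1. The widest, a peak of both lists of 646 bp, lay 21.5 kb downstream of the Tead3 start site, 0.197 kb from the start site of the ribosomal protein gene Rpl10a. The other peak of both lists, 578 bp wide, was 93.6 kb downstream in an intron of Ppard, which encodes a nuclear receptor for fatty acids. The 9 peaks were all counted in the density of Tead3, although their nearest start sites were those of Ppard, Fance, Rpl10a and Tulp1.

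Tead4, a TEAD factor that acts in the trophectoderm and in muscle precursors (chr6:128224288-128300823, minus strand), had a 331 bp peak directly on its start site in the list after 30 cycles and none there after 36 cycles. This peak overlapped the 5′ untranslated exon, with a GC content of 70.7%. Of the 3 peaks inside Tead4, a second was a 605 bp peak of both lists at 24.6 kb, which was 483 bp wide after 30 cycles and 471 bp after 36 cycles and lay 24 bp from the start of another annotated Tead4 transcript. The third was a 404 bp peak of the 30 cycle list at 20.4 kb. The remaining peak, 523 bp wide and in both lists, lay 62.6 kb upstream in an intron of Foxm1, 0.442 kb from the start site of this gene for a cell cycle transcription factor.

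The sequences of the central 200 bp of the widest peak of both lists are shown for the TEAD genes, since these peaks were called in both libraries. They are written 5′ to 3′ from the plus strand of GRCm38, and capitals mark any match to 1 of 4 sequences that were searched on both strands: the TEAD core CATTCC or its reverse complement GGAATG, the AP-1 sequence TGACTCA (on either strand), the E-box CAGCTG, and the RUNX sequence TGTGGT or its reverse complement ACCACA. At Tead3 the stretch is 170 bp, because bases in an annotated UTR are not printed. None of the 4 windows held a TEAD core, the Tead1 window held a RUNX sequence and the Tead2 window an E-box.
Tead1, chr7:112697254-112697453: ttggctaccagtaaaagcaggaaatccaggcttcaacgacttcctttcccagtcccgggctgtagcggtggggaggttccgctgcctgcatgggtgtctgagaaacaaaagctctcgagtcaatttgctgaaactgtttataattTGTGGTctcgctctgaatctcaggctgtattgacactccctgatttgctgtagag
Tead2, chr7:45191821-45192020: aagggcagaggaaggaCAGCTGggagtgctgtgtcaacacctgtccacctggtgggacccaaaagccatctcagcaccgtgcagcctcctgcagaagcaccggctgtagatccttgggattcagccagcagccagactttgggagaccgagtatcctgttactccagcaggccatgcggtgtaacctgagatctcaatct
Tead3, chr17:28328891-28329060: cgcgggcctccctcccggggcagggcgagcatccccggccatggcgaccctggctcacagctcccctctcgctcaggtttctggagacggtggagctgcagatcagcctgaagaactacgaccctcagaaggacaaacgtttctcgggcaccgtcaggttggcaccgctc
Tead4, chr6:128275803-128276002: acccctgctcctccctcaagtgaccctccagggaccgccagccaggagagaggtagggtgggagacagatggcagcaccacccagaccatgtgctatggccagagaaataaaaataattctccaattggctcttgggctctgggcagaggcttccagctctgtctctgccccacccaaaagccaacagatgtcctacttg

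**Figure D2:**
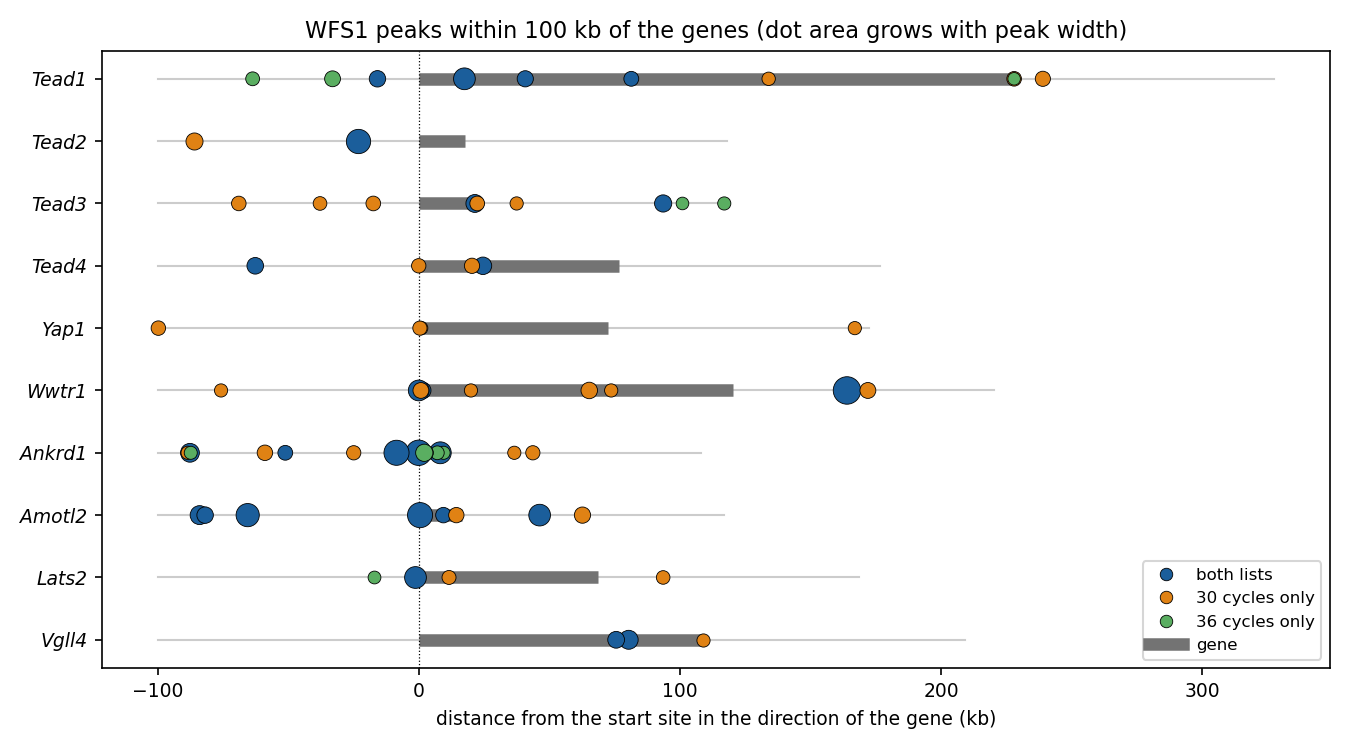
Position of the 68 combined WFS1 peaks relative to the start site of each gene (x axis, kb in the direction of the gene), 1 row per gene, with the gene body as a grey bar, the searched window as a thin line, dot color for the list or lists and dot area growing with peak width. Wwtr1, Ankrd1, Amotl2, Yap1 and Tead4 have a peak less than 1 kb from the start site, whereas those of Vgll4 lie at 75.6 kb and beyond and those of Tead3 lie outside the gene.

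Yap1 encodes YAP, the coactivator that LATS kinases phosphorylate. Around Yap1 (chr9:7931999-8004596, minus strand) the 30 cycle list held 4 peaks and the 36 cycle list held none, the only 1 of the 10 genes without a peak in a list. The nearest peak, 318 bp wide, began 451 bp downstream of the start site and overlapped a coding exon, and a 262 bp peak followed at 912 bp. Both lay at alternative starts, 53 and 73 bp from the nearest start of an annotated Yap1 transcript. The other peaks were on the start site of Birc2, an inhibitor of apoptosis 167 kb downstream, and in an intron of Cep126, 99.7 kb upstream, which was 339 bp wide. The limit of 100 kb bears on these counts, since the 339 bp peak was just inside it, 99711 bp from Yap1. A 332 bp peak of the 36 cycle list lay just outside it, 100090 bp from Yap1, followed by a 1184 bp peak of both lists 108 kb from Amotl2. The Yap1 peaks were between 243 and 339 bp, where the median over all peaks called after 30 cycles only was 324 bp. The central 200 bp of the peak nearest to the start site were rich in CpG (20 CpG, 72.5% GC) and held none of the 4 sequences.
Yap1, chr9:8003887-8004086: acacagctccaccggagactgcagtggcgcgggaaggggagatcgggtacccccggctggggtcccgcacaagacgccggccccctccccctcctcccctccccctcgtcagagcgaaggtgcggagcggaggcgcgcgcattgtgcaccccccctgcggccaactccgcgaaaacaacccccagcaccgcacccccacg

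Wwtr1 (chr3:57455649-57575910, minus strand) encodes TAZ, the paralog of YAP. In contrast to Yap1, its start site was covered by a combined peak of both lists, 949 bp wide. It spanned 561 bp after 30 cycles and 664 bp after 36 cycles. The start site lay near an edge of the combined peak, and at these widths the calls of the lists cannot both have covered it. The combined peak was followed by a 450 bp peak of the 30 cycle list at 0.823 kb over a coding exon. A 549 bp peak of both lists lay in the intron at 1.46 kb and measured 549 bp after 30 cycles and 230 bp after 36 cycles. The other 3 peaks inside the gene, at 20 kb (245 bp), 65.3 kb (514 bp) and 73.7 kb (245 bp), were all in introns and after 30 cycles only. The widest of the 68 combined peaks, 1848 bp and in both lists, lay between genes 164 kb from the Wwtr1 start site and 13 kb from that of Tm4sf4, a tetraspanin-like membrane protein gene, and 99.4% of all combined peaks were narrower. It joined 4 called peaks, 813 and 771 bp wide after 30 cycles and 332 and 1003 bp after 36 cycles, so its rank rests on the joining. Single peaks called at Amotl2 (1500 bp after 36 cycles) and Ankrd1 (1465 bp after 30 cycles) were wider than any of the 4. The 30 cycle list held 10 peaks around Wwtr1, which covered 4848 bp, and the 36 cycle list 4, which covered 2229 bp. Of the windows shown, the one labeled start site is the centre of the peak that covers the start site. This window lies upstream of the start site itself, and it held a TEAD core and 14 CpG. The window of the widest peak held none of the 4 sequences.
Wwtr1, start site, chr3:57576207-57576406: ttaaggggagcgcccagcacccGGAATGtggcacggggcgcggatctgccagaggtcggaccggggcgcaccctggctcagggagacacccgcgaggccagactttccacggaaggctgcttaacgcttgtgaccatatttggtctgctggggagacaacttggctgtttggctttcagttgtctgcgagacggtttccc
Wwtr1, widest peak, chr3:57411287-57411486: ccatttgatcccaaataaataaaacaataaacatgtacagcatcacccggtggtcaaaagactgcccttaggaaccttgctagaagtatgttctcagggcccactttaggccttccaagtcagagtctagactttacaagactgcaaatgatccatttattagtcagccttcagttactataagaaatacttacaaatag

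Ankrd1 (chr19:36111961-36120099, minus strand) encodes a cardiac and skeletal muscle ankyrin repeat protein and is commonly measured as a readout of YAP and TAZ activity. It had 15 combined peaks, the most of the 10 genes, and 72.1 per Mb, and 99.1% of protein-coding genes had a lower density. Unlike at Tead3, 13 of the 15 peaks had the Ankrd1 start site as their nearest, and 7 lay within 10 kb of the gene. A peak of both lists 1541 bp wide covered the start site (chr19:36119085-36120625), and others lay 8.51 kb upstream (1499 bp) and 8.26 kb downstream (1080 bp) of it, the latter just past the end of the 8.14 kb gene. The upstream peak was almost equally wide in both lists, 1465 bp after 30 cycles and 1404 bp after 36 cycles. Between the start site and the end of Ankrd1 lay 3 peaks called after 36 cycles only, 582 bp wide at 2.12 kb, 326 bp at 2.86 kb and 286 bp at 7.12 kb. Further upstream, peaks of both lists were found at 51.1 kb (365 bp) and at 87.6 kb (736 bp, in an intron of a lincRNA gene).

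Ankrd1 was the only 1 of the 10 genes with more peaks after 36 cycles (12) than after 30 cycles (10), and Tead1 had equal numbers. The higher count at Ankrd1 came from peaks split after 36 cycles. The 1541 bp peak was called as 1420 bp after 30 cycles and as 469 and 798 bp after 36 cycles. The 1080 bp peak was likewise called as 736 bp and as 558 and 346 bp. Of the 15 combined Ankrd1 peaks, 5 were in both lists, 5 after 30 cycles only and 5 after 36 cycles only. The bases under peaks were close, 6274 bp after 30 cycles and 5977 bp after 36 cycles. In the whole series the 36 cycle list was the shorter one, as it was for the other 8 genes. Since part of the start site peak is untranslated exon, only the surroundings of its TEAD cores, of 30 bases each with the core in capitals, are shown here with those of the peak 8.51 kb upstream and the peak 87.6 kb upstream, from the plus strand.
Ankrd1 start site, core at chr19:36119962-36119967: caggtgaattttCATTCCagacttagtgtc
Ankrd1 start site, core at chr19:36120049-36120054: atgtgagagggtCATTCCtttggcagtgac
Ankrd1 8.51 kb upstream, core at chr19:36129392-36129397: tctcaccgaaaaGGAATGcttcgcaaggaa
Ankrd1 87.6 kb upstream, core at chr19:36208102-36208107: acctacaagcaaGGAATGcatacacacatc

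Amotl2 (chr9:102716672-102733418, plus strand) encodes an angiomotin family protein that binds YAP at cell junctions and is itself a YAP/TAZ target. Of its 8 peaks 6 were in both lists (75%), the highest share among the 10 genes. A peak 1500 bp wide, 1302 bp after 30 cycles and 1500 bp after 36 cycles, began 0.512 kb downstream of the start site of the gene and covered the start of another annotated Amotl2 transcript. Inside the gene followed a 423 bp peak of both lists at 9.45 kb, whose widths of 423 and 410 bp in the lists were nearly equal, and a 412 bp peak of the 30 cycle list at 14.4 kb. The latter lay 0.329 kb, and the 423 bp peak 1.78 kb, from the nearest start of an annotated Amotl2 transcript. Distant peaks of both lists were also found, 1248 bp at 65.5 kb upstream and 1059 bp at 46.3 kb downstream, and 2 further ones of 753 and 511 bp lay 83.9 and 81.8 kb upstream over Anapc13, an anaphase-promoting complex gene. This 1500 bp peak is labeled start site peak below for that other transcript, since it does not cover the start site of the gene. It held 3 TEAD cores, although none in its central 200 bp, of which the 131 bp free of annotated UTR are shown first. The 30 bases around each core follow, from the plus strand.
Amotl2, centre of the start site peak, chr9:102717903-102718033: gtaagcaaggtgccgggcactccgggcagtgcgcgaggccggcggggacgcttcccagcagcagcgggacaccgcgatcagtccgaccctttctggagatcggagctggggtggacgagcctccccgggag
Amotl2 start site, core at chr9:102717433-102717438: tcggtgcctgtaGGAATGgagggtgagaac
Amotl2 start site, core at chr9:102717533-102717538: gcagggtggcagGGAATGaatgccgcacgg
Amotl2 start site, core at chr9:102717739-102717744: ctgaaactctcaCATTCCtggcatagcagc

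Lats2 (chr14:57689662-57758388, minus strand) encodes a kinase that phosphorylates YAP and TAZ and is induced by them, a negative feedback. Its widest peak, 1070 bp and in both lists, lay 1.59 kb upstream of the start site (chr14:57759978-57761047), and spanned 1070 bp after 30 cycles and 268 bp after 36 cycles. The only peak inside Lats2, 303 bp wide after 30 cycles only and 11.6 kb from the start site, overlapped the start of another annotated Lats2 transcript. When every annotated transcript start was used, Lats2 joined the genes with a peak at a start (6 of the 10 genes, beside 16.4% of all protein-coding genes). The 303 bp peak was 0.361 kb from the start site of the overlapping gene model Gm49361. The other peaks, 213 and 271 bp wide, lay 17.3 kb upstream and 93.6 kb downstream at Xpo4. The central 200 bp of the 1070 bp peak, shown here, held none of the 4 sequences, although the peak held 2 TEAD cores outside this window.
Lats2, chr14:57760413-57760612: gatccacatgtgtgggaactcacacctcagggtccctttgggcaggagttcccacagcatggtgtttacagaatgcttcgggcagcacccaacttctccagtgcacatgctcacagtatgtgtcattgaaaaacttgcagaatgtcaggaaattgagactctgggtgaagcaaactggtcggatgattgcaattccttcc

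Vgll4 (chr6:114860628-114969994, minus strand) encodes a vestigial-like cofactor that competes with YAP and TAZ for TEAD binding. All 3 of its peaks were inside the 109 kb gene and none was near its start site, the nearest being 75.6 kb away. The peaks of both lists were intronic, 754 bp wide at 80.4 kb (673 and 487 bp after 30 and 36 cycles) and 539 bp wide at 75.6 kb (539 and 405 bp). The third, 242 bp wide after 30 cycles only, overlapped the 3′ untranslated exon at 109 kb. It lay 3.33 kb from the start of another annotated Vgll4 transcript. With 9.7 peaks per Mb, Vgll4 was close to the median of all genes, and 52.6% of them had a lower density. The central 200 bp of the widest peak held a TEAD core.
Vgll4, chr6:114889127-114889326: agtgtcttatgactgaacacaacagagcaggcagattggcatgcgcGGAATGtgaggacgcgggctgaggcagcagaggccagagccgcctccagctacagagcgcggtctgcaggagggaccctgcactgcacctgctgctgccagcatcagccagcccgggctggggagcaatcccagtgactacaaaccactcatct

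**Figure D3:**
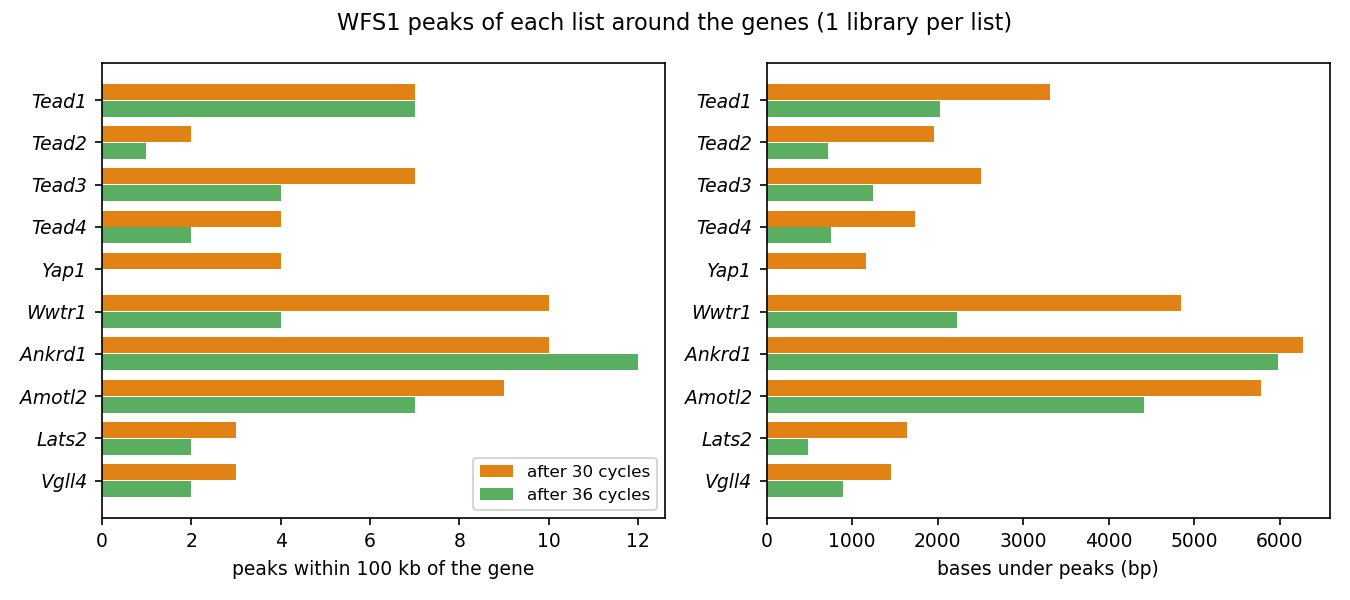
Number of WFS1 peaks within 100 kb of each gene (left, x axis in peaks) and bases under them (right, x axis in bp) in the list after 30 cycles (orange) and the list after 36 cycles (green), 1 library per list. Yap1 has no bar after 36 cycles, and Ankrd1 is the gene with more peaks after 36 cycles (12) than after 30 cycles (10). Peaks are counted as called, and some Ankrd1 peaks of the 30 cycle list were split after 36 cycles.

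Across the 10 genes, 59 peaks of the 30 cycle list and 41 peaks of the 36 cycle list gave the 68 combined peaks. Of these, 26 (38.2%, 95% Wilson interval 27.6 to 50.1) were in both lists, 31 (45.6%) after 30 cycles only and 11 (16.2%) after 36 cycles only. Over all combined peaks on nuclear chromosomes the shares were 35.4%, 45.5% and 19.1%, so the peaks of the 10 genes were divided between the lists much as all peaks were. The 11 peaks of the 36 cycle list alone belonged to Ankrd1 (5), Tead1 (3), Tead3 (2) and Lats2 (1). The bases under peaks were more after 30 cycles at all 10 genes, with the smallest gap at Ankrd1 and the largest relative one at Yap1, at which 1162 bp stood against none.

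Peak width, the one measure of size that the lists give, differed with the list. Peaks of both lists at the 10 genes had a median width of 744 bp, compared with 324 bp after 30 cycles only and 239 bp after 36 cycles only. All combined peaks had medians of 623, 324 and 255 bp in the same classes, and a joined peak is at least as wide as the wider peak in it. The 68 peaks had a median of 400 bp (mean 534 ± 379 bp, SD, n = 68 peaks), all peaks a median of 376 bp. The widest peaks, of 1059 to 1848 bp, were those described at Tead1, Tead2, Wwtr1, Ankrd1, Amotl2 and Lats2, whereas the peaks of Tead3, Tead4, Yap1 and Vgll4 reached at most 754 bp.

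**Figure D4:**
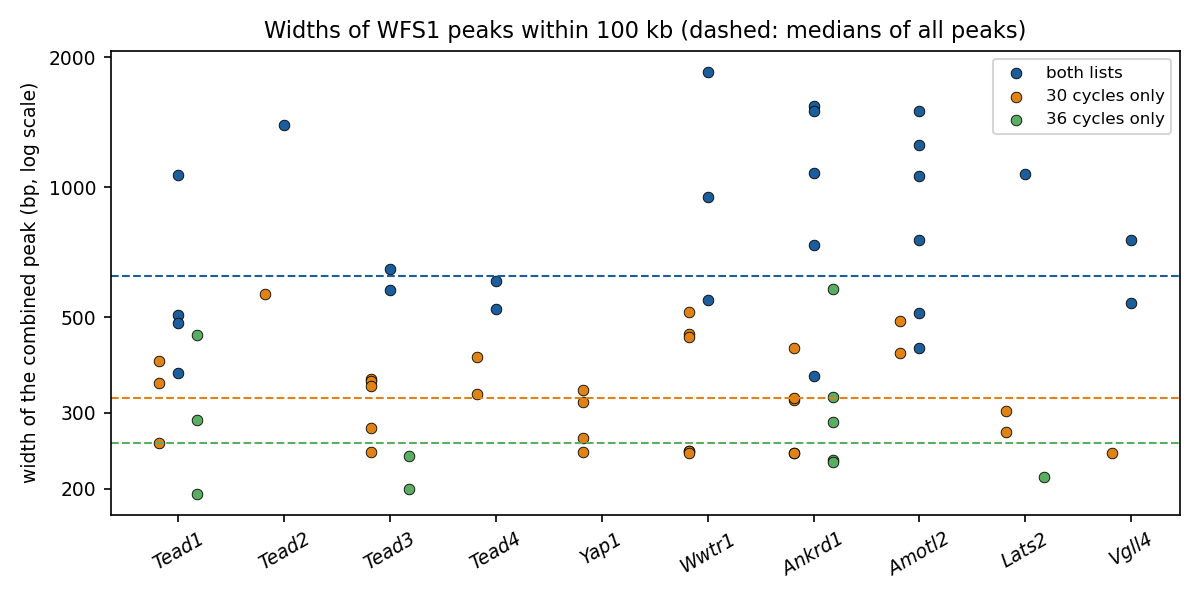
Width of each of the 68 combined WFS1 peaks (y axis, bp, log scale) by gene, colored by list, with dashed lines at the medians of all combined peaks of each class (623 bp for both lists, 324 bp for 30 cycles only, 255 bp for 36 cycles only). The widest peaks are in both lists and belong to Wwtr1, Ankrd1, Amotl2 and Tead2, and Yap1 has no peak of both lists.

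With regard to position, 23 of the 68 peaks were upstream of their gene, 19 downstream and 26 inside, of which 15 were in introns and 11 overlapped an exon. The nearest protein-coding start site was that of the gene itself for 40 peaks (58.8%), and it was within 1 kb for 7 of these. For 10 further peaks the start site of another gene was within 1 kb, among them those of the ribosomal protein genes Rpl10a and Rpl13a, of Birc2, Foxm1 and Commd2. Such peaks, at the start sites of neighbors, made up part of the counts of Tead2, Tead3, Tead4, Yap1, Wwtr1, Ankrd1 and Lats2, and a distance alone does not assign a peak to a gene.

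To see whether the peaks carried the sequence of the factors encoded by the first 4 genes, the central 200 bp of every peak were searched for the TEAD core. It was found in 11 of 68 peaks (16.2%, interval 9.28 to 26.7), in 15.6% of all combined peaks and in 10.6% of 42075 windows of the same length 2 kb to either side of them. The 11 peaks belonged to Ankrd1 (at 8.51, 24.9 and 87.6 kb upstream), Tead1 (63.6 kb upstream and 134 kb downstream of its start site), Amotl2 (81.8 kb upstream and 62.7 kb downstream), Wwtr1 (start site), Tead4 (62.6 kb upstream), Yap1 (99.7 kb upstream) and Vgll4 (80.4 kb downstream). At this number of peaks a difference from the share of all peaks was not detectable. In the whole peak the core occurred in 24 of 68 (35.3%), beside 29.4% of all peaks. Peaks with several cores lay both at start sites and away from them. Among these were the start site peaks of Wwtr1 (4 cores) and Ankrd1 (2), the 1500 bp peak of Amotl2 (3), the Amotl2 peak 62.7 kb downstream (3), and the Tead1 peaks 63.6 kb upstream and 17.5 kb downstream of the start site (2 each). The Lats2 peak 1.59 kb upstream of the start site also held 2.

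The E-box, which myogenic factors such as MyoD1 bind, was in 13 of the 68 windows (19.1%, 11.5 to 30) and in 18% of all peaks. Among the 13 was a 277 bp peak 37.8 kb upstream of Tead3, called after 30 cycles only, that held 17 copies of the E-box. The AP-1 sequence was in 8 (11.8%, 6.08 to 21.5) and in 17.9% of all peaks, and the RUNX sequence in 9 (13.2%, 7.12 to 23.3) and in 24.7% of all peaks. None of the 4 sequences was in 34 windows (50%), compared with 44.5% of all peaks and 67% of the windows 2 kb away. TEAD and AP-1 sequences stood together in none of the 68 windows, with an interval of up to 5.35%, and in 2.94% of all peaks. At the 10 genes the TEAD and E-box shares were close to those of all peaks, and the AP-1 and RUNX shares were lower in value, for RUNX with an interval that ends below the share of all peaks. The AP-1 share was not lower in every class of peaks. In peaks of both lists it was 1 of 26 (3.85%, 0.682 to 18.9) beside 20.8% of all such peaks. In peaks after 30 cycles only it was 6 of 31 (19.4%, 9.19 to 36.3) beside 16.8%. The RUNX share was lower in value in each class, but each interval included the share of all such peaks. In peaks of both lists it was 4 of 26 (15.4%, 6.15 to 33.5) beside 28.4%. After 30 cycles only it was 3 of 31 (9.68%, 3.35 to 24.9) beside 23.5%. After 36 cycles only it was 2 of 11 (18.2%, 5.14 to 47.7) beside 20.7%. Whole peaks were not compared for RUNX.

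**Figure D5:**
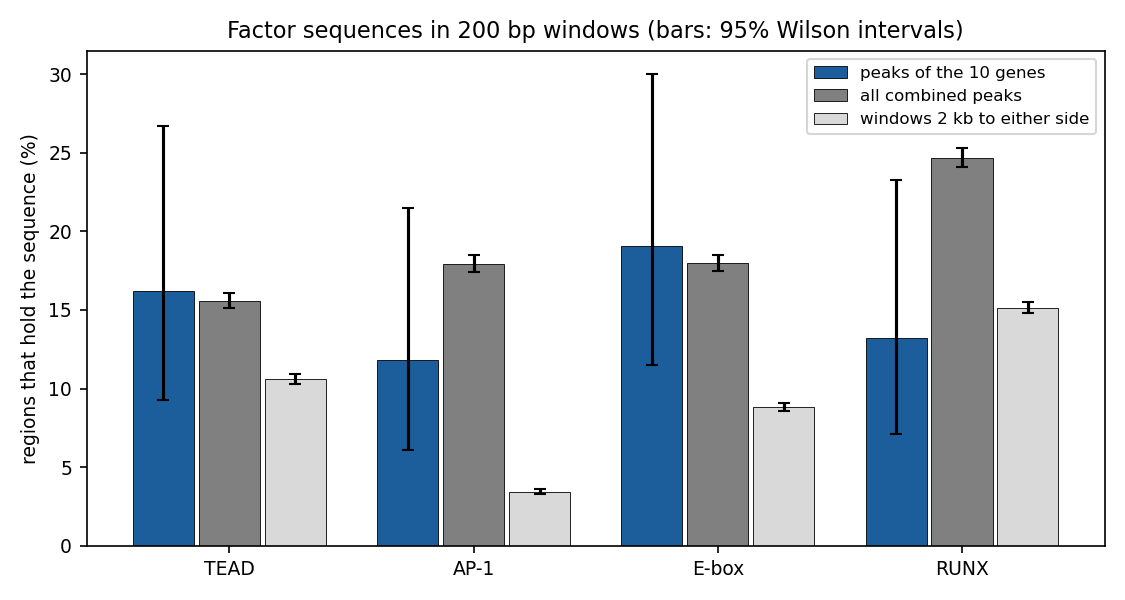
Share of 200 bp windows (y axis, %) that hold the TEAD, AP-1, E-box and RUNX sequences for the central windows of the 68 peaks at the 10 genes (blue), of all combined peaks (dark grey) and for windows 2 kb to either side of all peaks (light grey), with 95% Wilson intervals as bars. The wide bars of the 68 peaks include the share of all peaks for TEAD (15.6%), AP-1 (17.9%) and the E-box (18%), and end at 23.3% for RUNX, where all peaks have 24.7%.

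The promoters of the genes themselves, 250 bases before to 50 after each start in RefSeq on GRCm38.p6, were then searched for the same letters. Of the 10 genes, 8 were matched with 12 promoters in all, and Tead1 and Tead4 were not matched. The TEAD core was in 9 of the 12 promoters and in a promoter of 7 of the 8 genes (not Tead2), whereas 14.7% of all 32851 promoters and 16.6% of 27025 genes had it. Among promoters with a GC content of at least 60%, as most promoters of the 10 genes had, 9.4% of 9691 held the core. The 2 promoters of Wwtr1 share their site, and the Tead3 promoters overlap in sequence but hold different sites, so the 9 promoters are not separate observations. The 10 genes were picked from this pathway and include known YAP/TAZ targets. The contrast with all promoters uses no WFS1 data and was not tested.

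A WFS1 peak overlapped 4 of the 12 promoters, those of Wwtr1 (2, which share their site), Amotl2 and Ankrd1. The share of all promoters that overlap a peak was not counted, so the 4 have no background. Each of the 4 held a TEAD core, but so did 9 of the 12 promoters in all, with or without a peak. The cores began at position -136 of a Wwtr1 start, -65 of Amotl2, and -210 and -123 of Ankrd1, counted from the start in the direction of the gene. At Yap1, Vgll4, Lats2 and Tead3 the promoters with a core did not overlap a peak. Peaks were nevertheless near 2 of them, 451 bp from the Yap1 start site and, 303 bp wide, at another annotated Lats2 transcript start. The promoter sites are shown with flanking bases, 30 bases in all, in the direction of the gene. Those in promoters that overlap a peak (the first 4) are set beside those in promoters that do not.
Wwtr1, chr3:57576041-57576046, - strand: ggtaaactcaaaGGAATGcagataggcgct
Amotl2, chr9:102717739-102717744, + strand: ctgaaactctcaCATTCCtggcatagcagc
Ankrd1, chr19:36120049-36120054, - strand: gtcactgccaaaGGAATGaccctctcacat
Ankrd1, chr19:36119962-36119967, - strand: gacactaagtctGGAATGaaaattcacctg
Yap1, chr9:8004732-8004737, - strand: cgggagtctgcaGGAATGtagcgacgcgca
Vgll4, chr6:114969280-114969285, - strand: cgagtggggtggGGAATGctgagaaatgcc
Lats2, chr14:57746114-57746119, - strand: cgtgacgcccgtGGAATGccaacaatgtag
Tead3, chr17:28350982-28350987, - strand: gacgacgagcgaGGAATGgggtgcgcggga
Tead3, chr17:28350718-28350723, - strand: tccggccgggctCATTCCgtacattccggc
Tead3, chr17:28350709-28350714, - strand: gctcattccgtaCATTCCggccatccccct
Tead3, chr17:28350593-28350598, - strand: aggtaagcccggGGAATGcaactcggaggc

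Other genes of the pathway were taken from lists written from knowledge of gene function. Of 25 further Hippo genes (core and upstream kinases, scaffolds, junction proteins and TEAD cofactors), 23 had a peak within 100 kb, 14 a peak of both lists, 10 a peak less than 1 kb from the start site and 19 a peak inside the gene, with a median of 13.7 peaks per Mb. These were 92%, 56%, 40% and 76%, with no account taken of gene length. All protein-coding genes had 73.4%, 47.8%, 13.2% and 24.6% in the same order, so the share with a peak of both lists was near that of all genes. Those with a peak at the start site were the kinase genes Stk4 (MST1), Lats1 and Map4k4, the scaffold Sav1, the upstream genes Wwc2, Frmd6 and Fat4, the LATS inhibitor Ajuba and the TEAD cofactors Vgll2 and Vgll3. Most peaks were around Frmd6, Ajuba and Vgll2 (9 each) and Wwc2 and Taok3 (6 each), and none was around Wtip and Vgll1. Lats1 had 3 peaks, none in both lists, and one of them on its start site, whereas its paralog Lats2 had 4 with the 1070 bp peak of both lists upstream of the start.

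Of 20 further YAP/TAZ target genes, 18 had a peak within 100 kb, 16 a peak of both lists, 8 a peak less than 1 kb from the start site and 12 a peak inside the gene, with a median of 20.9 peaks per Mb. These were 90%, 80%, 40% and 60%, beside 73.4%, 47.8%, 13.2% and 24.6% of all protein-coding genes, again with no account taken of gene length. The most peaks were around Asap1 (21), Ccn1 (15), Myof (13), Birc5 (13) and Dock5 (10), and none was around F3 and Igfbp3. Ccn1 and Ccn2, which encode the matricellular proteins CYR61 and CTGF, both had a peak on the start site, as did Arhgef17 and Ccdc80, and Myof, Asap1, Crim1 and Ptpn14 had one within 1 kb. Ccn1 resembled Ankrd1 in these counts, with 15 combined peaks, 12 peaks of the 36 cycle list and 73.9 peaks per Mb, compared with 15, 12 and 72.1 for Ankrd1. The median of 6 peaks per target gene equaled that of the 10 genes described here, and that of the further Hippo genes was 4, beside 2 for all protein-coding genes.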

How the data were processed

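WFS1 ChIP-seq peaks of proliferating wildtype C2C12 cells were taken from the 2 deposited lists. Reads had been aligned by the authors to the GRCm38 assembly (NextGenMap), reads of low mapping quality removed (samtools), and peaks called in each library on its own (MACS2). The control used in calling is not given in the sources used here. The deposited values are coordinates only, so depth is unknown. The lists were joined as bedtools merge does, and distances ran from the nearest edge of a peak to the gene body (window of 100 kb) or to its single start site, the 5′ end of the gene. Protein-coding genes came from GENCODE mouse release M21, whereas the study names another annotation release. Shares of peaks have 95% Wilson intervals for counting error only. No test was made, as there is 1 library per condition. The 10 genes, the pathway lists and the searched sequences were chosen with earlier results of these data known. Named by a fixed rule are, per gene, the nearest and widest peak, every peak of both lists and every peak inside the gene or less than 1 kb from its start site, and in the pathway lists the genes with a peak at the start site, the 5 with most peaks and those with none. Chosen after the data were seen were peaks named for their TEAD core, repeated E-boxes, closeness to another peak or a neighboring gene's start site. The same holds for the comparison of Ccn1 with Ankrd1 and the promoter search. Sequence was printed for the widest peak of both lists and for a nearest peak within 1 kb, as the longest stretch of the central 200 bp without annotated UTR, so none is printed for the centre of the start site peaks of Tead4 and Ankrd1. Promoters came from RefSeq (GRCm38.p6). The alternatives tried were each list alone, other distances, other overlaps, joining of nearby peaks, wider peaks, every transcript start, and other windows and letters for the TEAD core. Joining, distances and searches were tested on simulated data and, in 5 checks, against bedtools or a direct count. Scripts ran in python 3.11.15 with bedtools 2.31.1, Wilson intervals in scipy 1.17.1 and tables in pandas 2.3.3.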

Additional observations from a re-analysis of the deposited data

How the results depend on the processing

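Of 31 alternative values, 23 stayed close to those reported (counts within 1.5 times, shares within the 95% interval) and 8 moved. The number of peaks around the 10 genes was 68 as reported, 41 with the list after 36 cycles alone, 34 within 10 kb and 35 with peaks wider than the median only, each of which leaves out peaks by its construction. Of the 10 genes, those with a start site peak (less than 1 kb away) numbered 5 as reported and 3 with the list after 36 cycles alone, which has fewer peaks. For that list alone the share of all genes with a start site peak was not counted. The share of peaks in both lists, 38.2% as reported, was 25% when the overlap had to cover at least 50% of each peak. Under this stricter overlap the share of all combined peaks was not counted, so the 25% has no background. The share with the TEAD core, 16.2% as reported, was 32.4% in the central 400 bp (26.8% of all peaks), 35.3% in the whole peak (29.4% of all peaks) and 7.35% when an A had to precede it (5.46% of all peaks). The number of genes with a peak, 10 as reported, was between 9 and 10 under each alternative. The share of all protein-coding genes with a peak moved more, from 37.6% within 10 kb to 61% within 50 kb and 83.8% within 200 kb. It was 70.5% with the list after 30 cycles alone and 58.2% with the list after 36 cycles alone. No paired analysis was possible because only 1 library represents a condition and nothing was tested, and for the same reason no replicate could be left out. No score is given for the peaks, so a stricter threshold could not be applied. Unknown depth limits all comparisons between the lists, and a region missing from a list is not shown to lack WFS1.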
